A study of Mus musculus with 2 samples.

Results

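CUG-type repeat loci are stretches of transcribed sequence in which the strand of a gene reads CUG without interruption, in any frame. They were taken from mm9 as all positions inside a gene body of the GENCODE vM1 annotation where the gene strand held at least 5 uninterrupted units, a rule that used no measured value. It found 1776 loci in 1461 genes, out of 55777 loci of all 20 trinucleotide types in 12182 genes, with 5 to 32 units per locus. Of these, 1470 lay in introns, 166 in coding exons, 39 in 3′ UTRs, 33 in 5′ UTRs and 59 in exons of noncoding transcripts. A further 9 lay in UTRs of no assigned end, because their position relative to the coding sequence did not place them at an end. Of the 1776 loci, 1647 lay in protein-coding genes. The 1678 CAG-type loci in 1277 genes, found by the same rule with 5 to 29 units, served as the comparison, because they contain the reverse complement of the same sequence.

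CUG repeats are best known from myotonic dystrophy type 1, in which an expanded CTG tract in the 3′ UTR of the DMPK gene is transcribed into RNA that accumulates in nuclei and holds muscleblind-like proteins. Muscleblind-like proteins regulate alternative splicing and bind RNA through zinc fingers that recognise a GC dinucleotide between pyrimidines, a pattern that a CUG repeat offers again and again and a CAG repeat does not. Mbnl1 is the main family member in adult skeletal muscle, and Mbnl2 is its close paralogue. The mice analysed here carry no introduced expansion, so the loci are the repeats of the normal mouse genome.

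Mbnl2 was crosslinked to RNA by UV light in powdered quadriceps muscle, the RNA was trimmed with RNase A, and the fragments that came down with an antibody to Mbnl2 were sequenced (HITS-CLIP). The groups were WT mice and mice without Mbnl1 (Mbnl1-/-, here Mbnl1 KO), both labelled C57BL/6 and 15 to 16 weeks old. Each group is 1 table in which the authors merged 3 mice, with no column for the mouse or the RNase condition, so no spread between mice and no p-value can be given. The knockout is not restricted to a cell type, the methods of the study name a mixed C57BL/129 background for the crosses of the same allele, and the authors describe more Mbnl2 protein in Mbnl1 KO than in WT muscle. The Mbnl1 gene body held 100 WT and 452 Mbnl1 KO tags, which gives no check of the labels, since the allele is named for 1 deleted exon.

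A tag is 1 row of a table, an aligned fragment left after the authors removed duplicates. Rows that repeat the position and strand of another row made up 7.47% of the WT and 14.4% of the Mbnl1 KO tags, with 8 and 48 such rows at CUG-type loci. In WT muscle 5176203 reads had been collapsed to 343554 tags and in Mbnl1 KO muscle 50329234 reads to 476543, with tag lengths of 18 to 33 nt, and 3 tags, the limit that a count of 0 allows, are 8.73 tags per 1000000 in WT and 6.30 in Mbnl1 KO. Of the tags on assembled chromosomes, 44.1% in WT and 17.1% in Mbnl1 KO were at least 70% one base in the reference (single-base tags), and they count in the totals behind each value per 1000000. Tags on the gene strand lay over all 16 muscle fibre markers (1221 WT and 4457 Mbnl1 KO tags) and all 15 markers of other cells (225 and 831), and RNA levels were not measured. The intervals below are 95% exact intervals that cover counting error only.

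The sequences shown here are from loci among the 15 with the most tags, described one by one below, read from mm9 on the gene strand, 5′ to 3′, with the uninterrupted repeat in capitals and up to 50 nt on each side in lower case. The first 2 are UTR loci cut to at most 30 bases, Txlnb (chr10:17516136-17516164, plus strand, 5′ UTR) and Nt5dc3 (chr10:86297926-86297954, plus strand, 3′ UTR). Amot is in a coding exon (chrX:141885211-141885269, minus strand), and the rest are in introns: Palld (chr8:64129310-64129431, minus strand), Add3 (chr19:53271032-53271148, plus strand), Fnip1 (chr11:54257279-54257393, plus strand), Dnajb14 (chr3:137542987-137543109, plus strand), Trdn (chr10:33136337-33136455, plus strand), Cast (chr13:74925637-74925768, minus strand), Jarid2 (chr13:44998732-44998929, plus strand) and Man2a1 (chr17:65027950-65028069, plus strand).
Txlnb: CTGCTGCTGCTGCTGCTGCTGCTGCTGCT
Nt5dc3: ttgtggcGCTGCTGCTGCTGCTtctgctc
Amot: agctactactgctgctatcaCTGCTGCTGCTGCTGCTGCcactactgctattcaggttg
Palld: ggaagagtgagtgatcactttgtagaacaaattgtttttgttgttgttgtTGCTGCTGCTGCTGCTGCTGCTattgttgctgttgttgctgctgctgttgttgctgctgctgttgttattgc
Add3: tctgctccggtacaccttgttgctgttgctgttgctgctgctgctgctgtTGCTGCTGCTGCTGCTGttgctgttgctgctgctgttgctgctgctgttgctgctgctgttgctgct
Fnip1: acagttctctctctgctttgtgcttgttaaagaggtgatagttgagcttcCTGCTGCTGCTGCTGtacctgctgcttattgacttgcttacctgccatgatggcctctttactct
Dnajb14: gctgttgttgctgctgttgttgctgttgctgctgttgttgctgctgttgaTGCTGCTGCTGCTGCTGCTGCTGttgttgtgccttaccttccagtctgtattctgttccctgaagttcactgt
Trdn: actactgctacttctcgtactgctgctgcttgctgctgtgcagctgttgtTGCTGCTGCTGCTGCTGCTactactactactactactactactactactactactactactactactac
Cast: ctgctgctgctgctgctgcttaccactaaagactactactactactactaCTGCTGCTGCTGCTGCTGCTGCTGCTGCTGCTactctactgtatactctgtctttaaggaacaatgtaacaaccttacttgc
Jarid2: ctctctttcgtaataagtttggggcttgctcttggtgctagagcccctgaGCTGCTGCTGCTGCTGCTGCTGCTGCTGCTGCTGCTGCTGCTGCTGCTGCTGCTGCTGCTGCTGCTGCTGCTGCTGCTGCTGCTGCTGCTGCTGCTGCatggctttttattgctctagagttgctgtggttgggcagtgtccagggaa
Man2a1: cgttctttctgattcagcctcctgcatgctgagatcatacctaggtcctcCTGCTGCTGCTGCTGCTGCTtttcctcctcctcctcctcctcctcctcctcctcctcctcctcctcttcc

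For contrast, the CAG-type loci with the most tags included Myst3 (chr8:24050101-24050158, plus strand) and the longer of the pair in Tob1 (chr11:94075747-94075812, plus strand), both in coding exons, shown with 20 nt on each side.
Myst3: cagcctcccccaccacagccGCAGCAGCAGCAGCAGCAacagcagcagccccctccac
Tob1: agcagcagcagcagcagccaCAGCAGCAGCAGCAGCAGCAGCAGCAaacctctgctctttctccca

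Mbnl2 tags lay at a large minority of the CUG-type loci. Within 50 nt of a locus on the gene strand there were 959 tags, of which 219 came from WT (638 tags per 1000000) and 740 from Mbnl1 KO muscle (1553 per 1000000). At least 1 tag lay at 553 of the 1776 loci, or 31.1% (29.0 to 33.4). In WT muscle 174 loci (9.80%) had a tag and in Mbnl1 KO muscle 478 (26.9%), with 99 loci in both, 75 in WT only and 379 in Mbnl1 KO only. Counting only tags of at least 2 reads, 14.0% of the CUG-type loci had a tag in either table (12.4 to 15.7).

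The share was much lower at other repeat types and over gene bodies at large. Of the 52323 loci of the 18 other trinucleotide types, 4.25% had a tag in either table, 1.72% in WT and 3.03% in Mbnl1 KO. Of those with a tag, 59.5% had it in Mbnl1 KO only, 28.6% in WT only and 11.9% in both, against 68.5%, 13.6% and 17.9% of the CUG-type loci with a tag. Gene bodies cut into tiles of 115 nt, the width of the window of a 5-unit locus, gave 1.97% of 9451197 tiles with a tag, and the value was 5.55% for exon tiles and 1.66% for intron tiles. The next type after CUG, with CCU units, reached 8.73% (8.13 to 9.37). CAG-type loci had a tag at 88 of 1678 loci, 5.24% (4.23 to 6.42), with 18 WT and 94 Mbnl1 KO tags. The share was not lower at CUG-type loci elsewhere, described below, with 29.3% antisense to a gene (27.1 to 31.6) and 32.0% outside gene bodies (30.5 to 33.6).

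**Figure D1:**
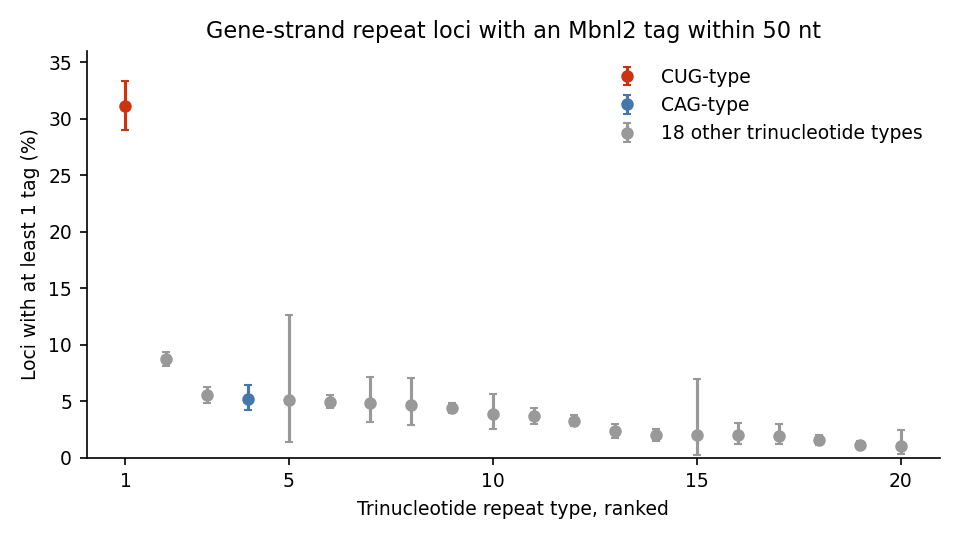
Percent of gene-strand loci with at least 1 Mbnl2 tag within 50 nt in either table (vertical axis), for the 20 trinucleotide types in order of that percent (horizontal axis), with 95% exact intervals as bars. The CUG-type loci stand at 31.1%, the CAG-type loci at 5.24%, and each of the 18 other types is at or below 8.73%.

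Per locus, CUG-type loci carried 11.5 times as many tags as CAG-type loci in WT muscle (7.11 to 19.8) and 7.44 times as many in Mbnl1 KO muscle (6.00 to 9.32). Both comparisons are made within 1 table and need no scaling. The strand of the repeat mattered in the same way. Over the windows of the CUG-type loci, the strand opposite to the gene, which reads CAG, held 17 WT and 26 Mbnl1 KO tags. Over the windows of the CAG-type loci, the opposite strand, which reads CUG, held 121 WT and 493 Mbnl1 KO tags against 18 and 94 on the gene strand.

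Most of the tags sat on the repeat itself. Of the 959 tags, 761 (79.4%) overlapped the repeat and 198 lay in the flanks only, while 39.3% of the 112 tags at CAG-type loci overlapped the repeat. Counted by tag midpoint, the CUG-type repeats held 29.7 WT and 120.2 Mbnl1 KO tags per 10 kb, unscaled. In the 25 nt on either side the density fell to 9.23 WT and 22.8 Mbnl1 KO tags per 10 kb upstream and to 4.73 and 20.5 downstream, and between 100 and 250 nt from the repeat it was 1.76 and 4.54. The CAG-type repeats held 0.796 WT and 4.51 Mbnl1 KO tags per 10 kb against 1.33 and 3.85 at 100 to 250 nt, so their profile had no such peak.

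**Figure D2:**
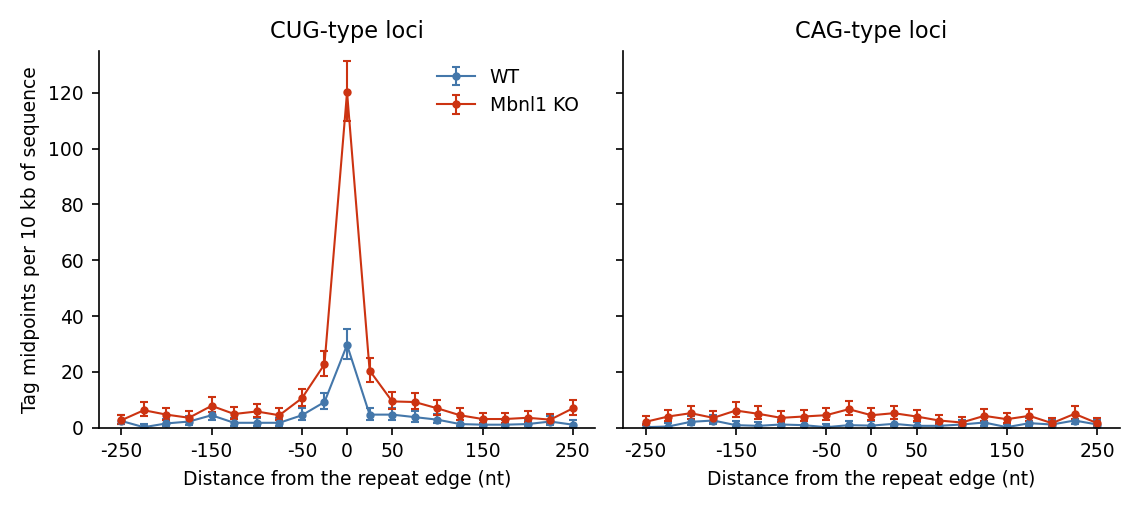
Tag midpoints per 10 kb of sequence, unscaled (vertical axis), on the repeat (0) and in 25 nt bins to 250 nt on either side, labelled by their outer edge (horizontal axis), with exact Poisson intervals as bars, for CUG-type loci (left) and CAG-type loci (right). Both tables peak on the CUG-type repeat, at 29.7 tags per 10 kb in WT and 120.2 in Mbnl1 KO, and neither does on the CAG-type repeat.

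Because the levels of the transcripts were not measured, the tags of the same gene stood in for them. Expected tags were those of the same part of the host gene, exon or intron, per base outside repeat windows, and tags were assigned by their midpoint. At CUG-type loci 211 WT tags were observed against 23.1 expected, a ratio of 9.13 (7.94 to 10.4), and 716 Mbnl1 KO tags against 56.3, a ratio of 12.7 (11.8 to 13.7). The excess was larger in introns, 12.3-fold in WT (10.4 to 14.3) and 24.3-fold in Mbnl1 KO (22.4 to 26.3), than in exons, 5.01-fold (3.72 to 6.61) and 4.15-fold (3.47 to 4.91). At CAG-type loci the ratio was 0.622 in WT (0.356 to 1.01) and 1.19 in Mbnl1 KO (0.946 to 1.47), and both intervals include 1. Split in the same way, the CAG-type ratio was 0.321 in WT introns (0.0661 to 0.937, from 3 tags), 1.42 in Mbnl1 KO introns (0.902 to 2.14), 0.795 in WT exons (0.423 to 1.36) and 1.12 in Mbnl1 KO exons (0.853 to 1.43).

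A repeat tag can match more than 1 place in the genome, and how the aligner placed such tags is not given in the sources used here. Of the 959 tags, 437 (45.6%, 42.4 to 48.8) had exactly 1 exact match in mm9, and 216 had over 100. With the tags of 1 match alone, a setting chosen after seeing the data, 238 CUG-type loci (13.4%, 11.9 to 15.1) and 61 CAG-type loci (3.64%, 2.79 to 4.65) had a tag. The ratio of tags per CUG-type locus to tags per CAG-type locus was then 6.17 in WT (3.57 to 11.5) and 4.33 in Mbnl1 KO (3.36 to 5.64), and the observed over expected ratio at CUG-type loci 3.98 (3.21 to 4.88) and 5.67 (5.06 to 6.32), with the expected tags still counted without this filter. At CAG-type loci, with the same unfiltered expected tags, the ratio was 0.506 in WT (0.269 to 0.865), an interval below 1. In Mbnl1 KO it was 0.917 (0.708 to 1.17). Over the whole genome, 1783 tags contained at least 5 units of CUG on their own strand (299 WT, 1484 Mbnl1 KO), of which 388 had 1 match and 270 were repeat from end to end, against 34 tags with 5 units of CAG.

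Longer repeats had a tag more often. Of the loci with 5 units 18.3% had a tag, with 6 to 7 units 31.4%, with 8 to 10 units 45.4% and with over 10 units 59.9% (53.1 to 66.4). The share of tags with 1 match fell along the same classes, from 52.2% to 28.0%. With those tags alone the values were 9.54%, 15.6%, 20.4% and 14.0% (9.69 to 19.2), so the order of the last 2 classes turned, within overlapping intervals. CAG-type loci ranged from 4.21% to 7.09% over the same classes without an order. Just outside the rule, the 2998 loci of 4 units had a tag in 9.41% (8.39 to 10.5), with 17.7 tags per 100 loci against 32.6 for loci of 5 units.

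**Figure D3:**
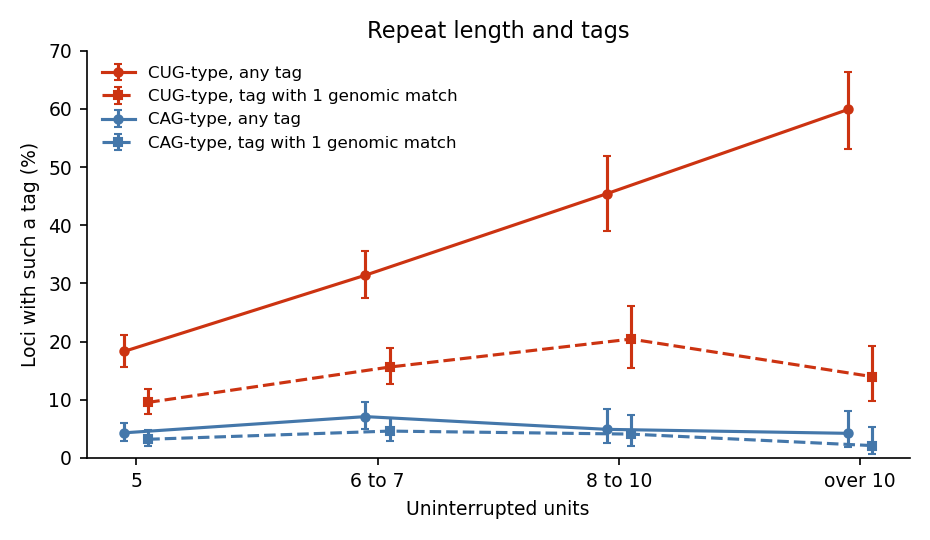
Percent of loci with a tag (vertical axis) by number of uninterrupted units (horizontal axis), for CUG-type and CAG-type loci, with any tag (solid lines) or a tag with 1 exact match in mm9 (dashed lines) and 95% exact intervals as bars. With any tag the CUG-type loci rise from 18.3% to 59.9%, with 1 match they lie between 9.54% and 20.4%, and the CAG-type loci stay at or below 7.09%.

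The flanks of the CUG-type loci held more of the muscleblind motif than those of CAG-type loci. The motif was searched on the gene strand as TGCT and its 3 variants with C for T at either or both ends, overlapping matches included, in the 50 nt on each side. CUG-type loci held 2.99 matches on average and CAG-type loci 1.13, with at least 2 matches at 55.2% and 29.3% of the loci. CUG-type loci with a tag held 4.01 in their flanks on average and those without a tag 2.53, with at least 2 matches at 62.2% and 52.0%. The median was 2 in both, and loci with a tag also had longer repeats (median 7 against 5 units). CUG-type loci with a tag of 1 match held 4.13 on average, with a median of 3 matches and of 6 units. The repeats themselves hold 4 to 31 such matches in the CUG-type and 0 in the CAG-type.

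The comparison of genotypes asks whether more Mbnl2 reached these repeats where Mbnl1 was missing. The Mbnl1 KO/WT ratio of tags per 1000000 was 2.44 at CUG-type loci (2.09 to 2.85), 3.77 at CAG-type loci (2.26 to 6.63) and 1.11 at the other trinucleotide loci (1.03 to 1.20). With tags of at least 2 reads the ratio was 1.33 at CUG-type loci (1.03 to 1.72) and 1.72 at CAG-type loci (0.855 to 3.82), where the interval then includes 1, and for tags no shorter than 25 nt it was 4.16 at CUG-type loci (3.25 to 5.39) and 6.09 at CAG-type loci. The ratio at CUG-type loci divided by that at CAG-type loci was 0.647 (0.360 to 1.11), an interval that includes 1 and does not depend on scaling, and with tags in the flanks only it was 0.361 (0.147 to 0.795), an interval that does not. Divided by that at the other trinucleotide loci it was 2.20 (1.85 to 2.61). Single-base tags made up 791 of the 2915 tags at those loci and 6 of the 959 at CUG-type loci, and without them the value was 1.24 (1.03 to 1.49). Against CUG-type loci outside genes, described below, the quotient was 0.743 with all tags (0.605 to 0.913) and 0.640 with tags of 1 match (0.430 to 0.942). Against CUG-type loci antisense to a gene it was 0.816 (0.625 to 1.06) and 1.30 (0.773 to 2.15), intervals that include 1.

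The surroundings were compared within introns and within exons. At intronic CUG-type loci there were 166 WT and 598 Mbnl1 KO tags, with a ratio of 2.60 (2.18 to 3.10), against 1.21 (1.20 to 1.22) over the rest of the introns, so the ratio was 2.15 times that of the introns (1.81 to 2.57). Of the tags at intronic CUG-type loci, 39.5% had 1 match. Matches were counted near repeats only, so this contrast was not run with tags of 1 match. At exonic CUG-type loci there were 53 WT and 142 Mbnl1 KO tags, with a ratio of 1.93 (1.40 to 2.70), against 2.77 (2.73 to 2.81) over the rest of the exons, which is 0.697 times as much (0.505 to 0.974). Without the single-base tags the same quotients were 1.64 (1.37 to 1.96) in introns and 0.655 (0.474 to 0.918) in exons. With tags of at least 2 reads in addition, the quotient was 1.26 in introns (0.929 to 1.73), an interval that includes 1, and 0.522 in exons (0.326 to 0.860). The Mbnl1 KO/WT ratio at the CUG-type loci themselves was then 1.27 in introns (0.940 to 1.745) and 0.759 in exons (0.474 to 1.25). Both of these intervals include 1. The exonic quotients rest in part on the Txlnb locus. Without it they were 0.768 with all tags (0.542 to 1.11), 0.721 without single-base tags (0.507 to 1.04) and 0.544 with at least 2 reads in addition (0.323 to 0.9501). Of these 3 intervals only the last lies below 1.

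Single loci were thinly covered. Of the 553 loci with a tag, 333 had 1 tag, 192 had 2 to 4, 28 had 5 or more and 6 had 10 or more, and the 15 loci with the most tags held 154 of the 959 tags (16.1%). No locus with 10 or more tags had a ratio interval that excluded 1. The 15 loci are therefore described by their tags.

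**Figure D4:**
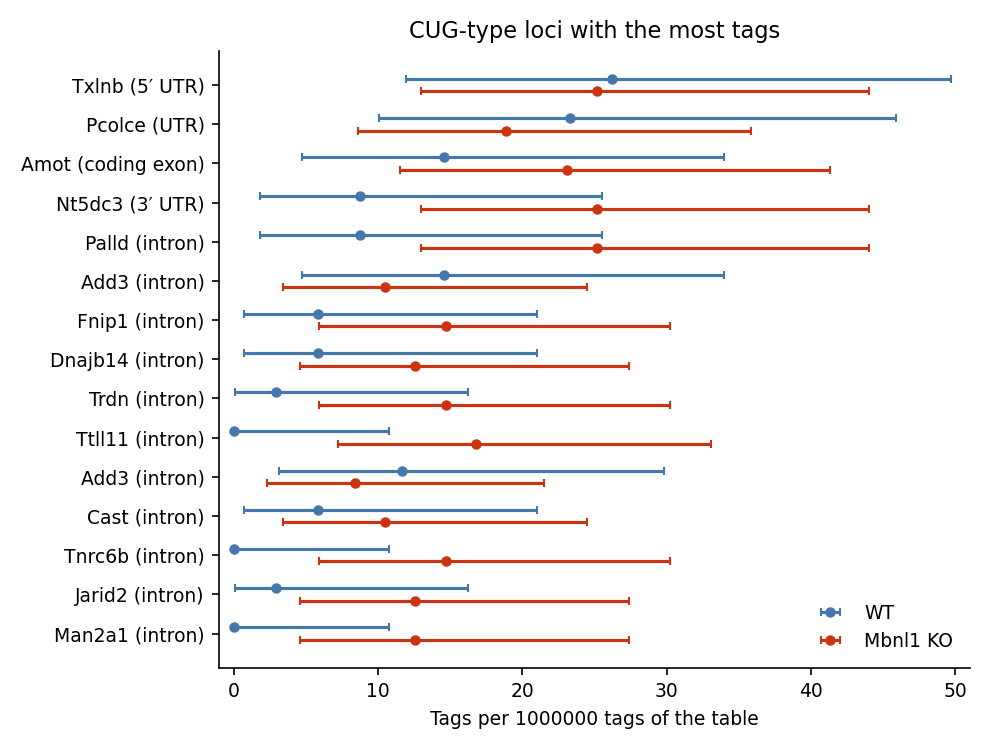
Tags per 1000000 tags of the table (horizontal axis) in WT and Mbnl1 KO muscle at the 15 CUG-type loci with the most tags (vertical axis, with the part of the gene), with exact Poisson intervals of each count as bars. The intervals of the 2 tables overlap at all 15 loci, and Txlnb is highest in WT with 26.2 tags per 1000000, while Txlnb, Nt5dc3 and Palld share the highest Mbnl1 KO value of 25.2.

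Of the 5 loci with the most tags, the first 3 and 1 of the pair tied behind them with 15 tags (Nt5dc3, with Palld) are annotated in exons. Txlnb, which encodes beta-taxilin, a coiled-coil protein abundant in muscle, had 9 units in its 5′ UTR with 9 WT and 12 Mbnl1 KO tags (26.2 and 25.2 per 1000000, ratio 0.961, 0.372 to 2.58). Of its 21 tags 19 had 1 match in the genome, 15 overlapped the repeat, and the locus held 48.8% of all tags over the gene. Pcolce, an enhancer of the enzyme that cleaves procollagen, had 12 units in a UTR (chr5:138052594-138052629, minus strand) with 8 WT and 9 Mbnl1 KO tags, with a ratio of 0.811 (0.278 to 2.42). These 17 tags were 73.9% of the tags over Pcolce. At both loci the tables held nearly the same number of tags.

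Amot encodes angiomotin, a scaffold at cell junctions that binds regulators of the Hippo pathway. Its 6 units in a coding exon had 5 WT and 11 Mbnl1 KO tags (14.6 and 23.1 per 1000000, ratio 1.59, 0.508 to 5.82), and 11 of the 16 tags lay upstream of the repeat without touching it. Nt5dc3 had 5 units in the 3′ UTR with 3 WT and 12 Mbnl1 KO tags (8.73 and 25.2 per 1000000, ratio 2.88, 0.778 to 15.9), 14 of them on the repeat. Both ratios are above 1 with intervals that include 1, and over the whole gene bodies they were 1.61 for Amot (1.07 to 2.47) and 1.72 for Nt5dc3 (1.01 to 3.01).

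Palld encodes palladin, a scaffold of the actin cytoskeleton. Its intronic locus of 7 units had 3 WT and 12 Mbnl1 KO tags (ratio 2.88, 0.778 to 15.9), and 14 of the 15 lay downstream of the uninterrupted repeat, on the side of the interrupted CUG units in the sequence above. A single tag held 12431 of the 12588 Mbnl1 KO reads there, which is why tags and not reads are compared. Add3, the gamma subunit of the adducins that cap actin filaments, had 2 neighbouring loci of 5 units in 1 intron with overlapping windows and shared tags. The locus shown had 5 WT and 5 Mbnl1 KO tags and its neighbour 4 and 4, a ratio of 0.721 at each, and 1 tag in each window had 1 match. The 20 motif matches in the flanks of the locus shown are the most among the 15 loci.

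Fnip1, which binds folliculin and AMP-activated kinase, had an intronic locus of 5 units with 2 WT and 7 Mbnl1 KO tags (ratio 2.52, 0.480 to 24.9), all 9 with 1 match. Trdn encodes triadin, a partner of the ryanodine receptor in the sarcoplasmic reticulum, and its intronic locus of 6 units had 1 WT and 7 Mbnl1 KO tags (ratio 5.05, 0.648 to 227.4). Over the whole Trdn gene the tables held 50 and 250 tags, a ratio of 3.61 (2.65 to 4.99). The interval at the locus includes the ratio of the gene.

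Dnajb14, a membrane-bound cochaperone of the endoplasmic reticulum, had 7 units in an intron with 2 WT and 6 Mbnl1 KO tags, 7 of the 8 on the repeat. Cast encodes calpastatin, the inhibitor of calpain proteases, and its intronic locus of 10 units had 2 WT and 5 Mbnl1 KO tags, all 7 on the repeat and with 1 match, between positions 74925677 and 74925699 at the 3′ end of the repeat. Jarid2, a cofactor of Polycomb repressive complex 2, held the longest repeat of all, 32 units in an intron, with 1 WT and 6 Mbnl1 KO tags, 6 of them with 1 match. Only 2 of the 7 Jarid2 tags touched the repeat.

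Ttll11, Tnrc6b and Man2a1 had no WT tag. Ttll11, a tubulin polyglutamylase, had 9 units in an intron (chr2:35833251-35833278, minus strand) with 8 Mbnl1 KO tags, 5 of them with 1 match. The 8 tags are 16.8 per 1000000 against a WT count of 0, and the lower bound of the ratio was 1.23. A neighbouring Ttll11 locus of 6 units has an overlapping window and shared tags. Tnrc6b, a partner of Argonaute in silencing by microRNAs, had 13 units in an intron (chr15:80715445-80715485, plus strand) with 7 Mbnl1 KO tags, all with 1 match, and a lower bound of 1.04. Man2a1, a mannosidase of the Golgi, had 6 units in an intron with 6 Mbnl1 KO tags, all with 1 match and on the repeat, and a lower bound of 0.849. These 3 loci are among the 15 only through their Mbnl1 KO tags, which favours a high ratio, so the bounds describe the counts and do not test a difference.

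All 5 of the longest loci had a tag, against 59.9% of the loci over 10 units. Besides Jarid2, the longest repeats were the 26 units of Mapkap1 in the 3′ UTR and of Nr6a1, Armc8 and Sh3kbp1 in introns. Mapkap1, a subunit of mTOR complex 2, had 1 WT and 3 Mbnl1 KO tags, all on the repeat and with 1 match. Nr6a1, an orphan nuclear receptor, had 2 Mbnl1 KO tags, and Armc8, a subunit of a ubiquitin ligase, and Sh3kbp1, an endocytic adaptor, had 1 each, none with 1 match.

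A list of genes known for repeat expansions in humans was looked up next. Of the 14 such genes found in the annotation, 4 held CUG-type loci, 5 loci in all, of which 3 had a tag (1 WT and 4 Mbnl1 KO tags together), against 31.1% of all CUG-type loci, too few loci to set the list apart. Tcf4, a basic helix-loop-helix factor in which an intronic CTG tract is expanded in a human corneal dystrophy, had 20 units in an intron with 1 WT and 1 Mbnl1 KO tag. Cacna1a, the pore subunit of a neuronal calcium channel, had 2 intronic loci, 1 of 21 units with 2 Mbnl1 KO tags and 1 of 5 units with no tag. Ppp2r2b, a regulatory subunit of protein phosphatase 2A, had 1 Mbnl1 KO tag at 5 units and Htt none at 7 units.

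Dmpk itself, the gene of myotonic dystrophy type 1, has no CUG-type locus of 5 units in mm9. Its gene body held 5 WT and 15 Mbnl1 KO tags (ratio 2.16, 0.747 to 7.61), and that of Cnbp, the gene of type 2, held 2 and 8. The CAG-type loci of the list, in Atxn1, Atxn2, Atxn3 and Atxn7, had 0 tags at 5 loci, where 5.24% of all CAG-type loci had one. Of the 12 genes for proteins known to bind CUG repeats, such as Mbnl1, Celf1 and Hnrnph1, none held a CUG-type locus. Celf2 held 1 CAG-type locus with 0 tags.

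The CAG-type loci with the most tags had them beside the repeat rather than on it. Myst3, a histone acetyltransferase, had 1 WT and 5 Mbnl1 KO tags, none of them on the repeat. The longer Tob1 locus, in a gene that restrains cell proliferation, had 1 and 4, with 1 tag on the repeat, and its neighbour in the same exon, with an overlapping window and shared tags, had 1 and 3, with none. Mdh2, the mitochondrial malate dehydrogenase, had 5 Mbnl1 KO tags in the 3′ UTR, 1 on the repeat, and only Maml2, a coactivator of Notch, had most of its tags (3 of 4) on the repeat.

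CUG-type repeats on the other strand of genes and outside genes set the gene-strand loci in context. Of 1556 loci antisense to a gene 29.3% had a tag, and of 3491 loci outside gene bodies 32.0% did, close to the 31.1% on the gene strand. The number of tags per 100 loci was 54.0 on the gene strand, 37.0 antisense and 42.9 outside genes. Per locus, gene-strand loci had 1.71 times as many tags as antisense loci in WT (1.36 to 2.17) and 1.40 times in Mbnl1 KO (1.24 to 1.57), and 1.59 (1.33 to 1.91) and 1.19 times (1.08 to 1.30) as many as loci outside genes. The distance was larger with tags of 1 match. On the gene strand there were 24.6 such tags per 100 loci, antisense 6.81 and outside genes 9.37. Gene-strand loci had 2.96 times as many of these tags per locus as antisense loci in WT (1.94 to 4.65) and 3.86 times in Mbnl1 KO (3.00 to 5.01), and 3.78 (2.67 to 5.41) and 2.41 times (2.05 to 2.84) as many as loci outside genes. The share of tags with 1 match was 45.6% on the gene strand, 18.4% antisense and 21.8% outside genes.

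**Figure D5:**
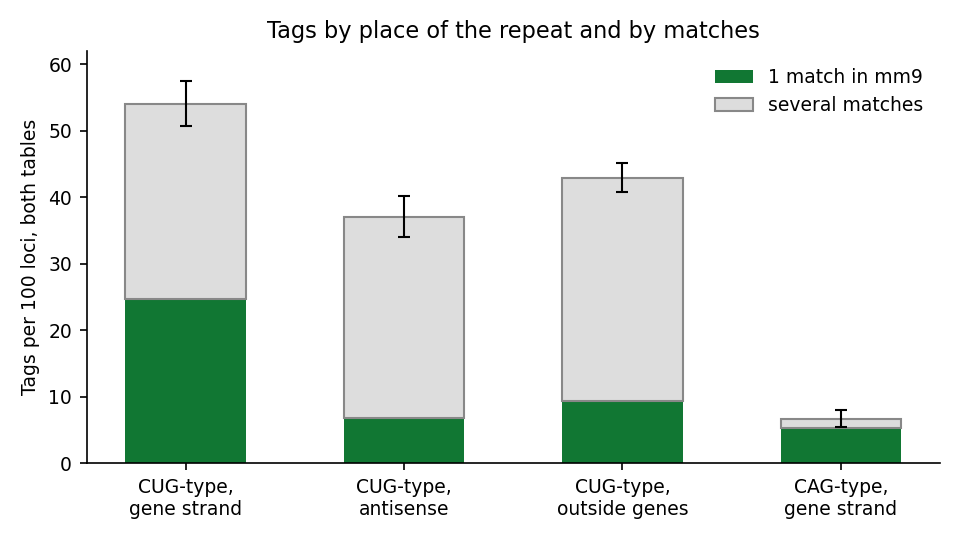
Tags per 100 loci over both tables (vertical axis) at CUG-type loci on the gene strand, antisense to a gene and outside genes, and at CAG-type loci (horizontal axis), split into tags with 1 exact match in mm9 (green) and with several (grey), with the exact Poisson interval of all tags as a bar. Tags with 1 match number 24.6 per 100 loci on the gene strand, against 6.81, 9.37 and 5.30 at the other loci.

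Within genes, the part of the transcript made some difference. Per 100 loci there were 52.0 tags in introns, 39.8 in coding exons, 35.6 in noncoding exons, 81.8 in 5′ UTRs, 133.3 in 3′ UTRs and 322.2 at the 9 loci in UTRs of no assigned end, but 21 of the 27 tags in 5′ UTRs came from Txlnb and 17 of the 29 in UTRs of no assigned end from Pcolce. With tags of 1 match there were 20.5 per 100 loci in introns and 22.9 in coding exons, so their order turned. The percent of loci with a tag was 32.2% in introns (29.8 to 34.6), 22.9% in coding exons (16.7 to 30.04), 22.0% in noncoding exons (12.3 to 34.7), 15.2% in 5′ UTRs (5.11 to 31.9), 46.2% in 3′ UTRs (30.1 to 62.8) and 66.7% in UTRs of no assigned end (29.9 to 92.5). Intronic loci within 300 nt of an exon had a tag in 30.7% (23.5 to 38.7) and those farther away in 32.4% (29.8 to 35.0), which overlap. For CAG-type loci the order was another one, with 12.7% in coding exons (9.57 to 16.4) and 2.73% in introns (1.86 to 3.85).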

How the data were processed

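The tables hold Mbnl2 HITS-CLIP tags of quadriceps from WT and Mbnl1 KO mice (3 per genotype). Positions are in mm9, from BWA (its version and the placement of tags with several matches are not given in the sources used here). The authors had merged the mice and, per the methods, screened the reads for quality, length and PCR duplication. The shortest deposited tags are 18 nt in both groups, which is below the length cut that the methods state. Each row of the deposited tables is 1 tag with a raw count, the reads behind that tag, and several rows can share a position.

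Repeats were found in mm9 by exact search for 5 or more units, and a tag counted when it overlapped the locus widened by 50 nt on the gene strand. Where windows overlapped (114 CUG-type loci), a tag counted once in sums. Tags were scaled to 1000000 tags of their table, which multiplies a raw Mbnl1 KO/WT ratio by 0.721. Shares and ratios have exact Clopper-Pearson intervals at 95%, quotients of ratios conditional exact intervals of the odds ratio, and observed over expected counts exact Poisson intervals. With 1 table per genotype no test was made. The table totals limit the precision at single loci. Exact matches of tags were counted on both strands of mm9. The scripts ran in Python 3.11.15 with scipy 1.17.1, pandas 2.3.3, numpy 2.4.6 and, for the plots, matplotlib 3.10.9, and counting and intervals were tested on simulated data.

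Named loci are the 15 CUG-type loci with the most tags, the 5 with the most units, any with at least 10 tags and an interval without 1, those in genes of repeat expansion or CUG binding, and the 5 CAG-type loci with the most tags. The members and lists were chosen with earlier results of these data known. Alternatives were another scaling, tag filters by base content, reads, position and length, other windows, 4, 6 or 8 units, protein-coding genes, and leaving out the top loci. Tags with 1 match were added after seeing the data.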

Additional observations from a re-analysis of the deposited data

Results flagged for a closer look

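CUG-type repeats antisense to a gene or outside gene bodies lay outside the main comparison and carried signal too. At the 1556 loci antisense to a gene there were 973.7 Mbnl1 KO tags per 1000000, against 326.0 in WT and a limit of 6.30 tags per 1000000 in Mbnl1 KO for a count of 0. At the 3491 loci outside gene bodies the Mbnl1 KO value was 2577 tags per 1000000, against 786 in WT. The Mbnl1 KO/WT ratio was 2.99 antisense (2.43 to 3.71) and 3.28 outside genes (2.87 to 3.76), and with tags of 1 match it was 1.91 (1.23 to 3.04) and 3.90 (2.89 to 5.37). Tags with 1 exact match made up 18.4% and 21.8% of the tags there, and whether the rest came from these loci was not tested. The Mbnl1 KO/WT ratio on the gene strand was 0.743 times that outside genes (0.605 to 0.913), and 0.640 times with tags of 1 match (0.430 to 0.942).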

How the results depend on the processing

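No paired analysis was possible because the authors merged the 3 mice of each genotype, and for that reason leaving out single mice was not run. The Mbnl1 KO/WT ratio at CUG-type loci was above 1 under each alternative run, from 1.33 to 4.16. Of the summary values under alternatives 96 moved by less than their counting interval and 62 by more, and the cause was not tested where the setting does not itself remove tags or loci. The Mbnl1 KO/WT ratio at CUG-type loci was 3.38 without scaling, 1.67 without single-base tags, 1.33 with tags of at least 2 reads, 4.16 with tags of at least 25 nt and 1.70 in the flanks only, and at CAG-type loci it was 1.72 with tags of at least 2 reads. The quotient of both was 1.18 with at least 8 units, with an interval of 0.412 to 2.97, so its side of 1 changed, and 0.361 in the flanks only. The CAG-type interval also included 1 with at least 8 units (0.935 to 6.28). Tags per CUG-type over tags per CAG-type locus in WT were 6.88 with a window of 100 nt, 6.19 in the flanks only, 6.26 with at least 4 units and 6.17 with tags of 1 match. In Mbnl1 KO they were 5.83 with at least 2 reads, 9.81 with at least 25 nt, 16.2 on the repeat, 5.68 with 100 nt, 2.23 in the flanks, 5.42 and 14.9 with at least 4 and 8 units and 4.33 with 1 match. The percent of CUG-type loci with a tag was 14.0 with at least 2 reads, 16.8 with at least 25 nt, 27.7 on the repeat, 5.69 in the flanks, 17.5, 41.1 and 52.4 with at least 4, 6 and 8 units and 13.4 with 1 match. For CAG-type loci it was 3.16, 2.32, 2.15 and 2.80 under the first 4 of these settings, 7.51 with a window of 100 nt, 3.95 with at least 4 units and 3.64 with 1 match. Tags on the opposite strand were 4.29% of the tags of both strands over the CUG-type windows, and 2.76% without single-base tags, 2.15% with at least 2 reads, 1.55% on the repeat, 13.5% in the flanks and 7.09% and 2.43% with at least 4 and 8 units. Loci over 10 units had 3.26 times the tags per locus of loci with 5 units, and 4.62 times with at least 25 nt, 4.01 on the repeat, 1.50 in the flanks and 1.75 with 1 match. Observed over expected tags in WT were 11.2 without single-base tags, 7.72 with at least 2 reads, 28.0 on the repeat, 6.09 with 100 nt and 5.82, 13.9 and 16.6 with at least 4, 6 and 8 units. In Mbnl1 KO they were 8.25 with at least 2 reads, 15.2 with identical tags collapsed, 46.7 on the repeat, 8.06 with 100 nt and 7.77, 19.8 and 25.6 with at least 4, 6 and 8 units. The density on the repeat over that at 100 to 250 nt, 26.5 in Mbnl1 KO, was 17.2 with at least 2 reads, 31.2 with identical tags collapsed and 22.0 and 34.3 with at least 4 and 6 units. At single loci 130 values moved by less than their interval, and the ratio moved to 0.498 at Nt5dc3 with at least 2 reads and to 6.25 at Amot with at least 25 nt. Depth limits single loci, since 333 of the 553 loci with a tag rest on 1.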
